A study of Canis lupus familiaris with 13 samples.

Results

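The collagen genes are described here across 13 tumor biopsies from dogs treated with IMAX. They were chosen by name alone, as the gene symbols made of COL, a number, the letter A and a second number, such as COL1A1. The table of counts held 43 such symbols among 43427. They were sorted into 5 classes by their known assembly: 8 fibrillar genes, 7 cartilage genes, 10 basement membrane genes, 7 genes of filaments and short networks, and 11 fibril-associated, transmembrane and other genes. COL8A1 and COL6A4 belong to these classes and were not analysed here. The 43 genes lie on 20 chromosomes in the RefSeq annotation of the dog assembly UU_Cfam_GSD_1.0 (CanFam4).

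Collagens are proteins of the extracellular matrix built from chains that wind into a triple helix. Collagen I, made of the COL1A1 and COL1A2 chains, and collagen III, made of COL3A1, form the thick fibrils of connective tissue and are secreted mainly by fibroblasts, while collagen V sits inside those fibrils and governs their width. Collagen IV forms the sheet under epithelia and around vessels, and collagen XVII anchors epithelial cells to it. Collagen VI forms beaded filaments around cells, and collagens II, IX and XI form the thin fibrils of cartilage. Canine mammary tumors can hold epithelial, myoepithelial and cartilage-like or bone-like parts, and soft tissue sarcomas arise from mesenchymal cells, so both can contain collagen-producing cells.

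The biopsies came from 3 companion dogs with naturally occurring tumors. Dog RV had a soft tissue sarcoma, dog CL had a cranial and a caudal mammary tumor, and dog BM had a mammary mass in the middle of the left 5th gland. All received IMAX in the tumor, a nanoparticle complex of a lithocholic acid conjugate of polyethyleneimine, the taxane paclitaxel and a cyclic dinucleotide that activates the innate immune sensor STING. The before group held 1 untreated biopsy of each of the 4 tumors, which served as its own control. The early group held 1 biopsy of each tumor, taken 2 days after the second dose in RV and 1 week after it in both CL tumors and BM. The late group held 5 biopsies, taken at 1 month in both CL tumors, at 3 weeks in BM, and at 2 weeks after a further dose in RV, where the injection site and an adjacent site were sampled. No untreated tumor is among the masses followed here, the 2 CL tumors share a host, and tumor type, dog and sampling time cannot be told apart. The late biopsies came from the operations that removed the masses, an amputation in RV and mastectomies in CL and BM, so the way the tissue was taken and the late time cannot be told apart.

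Strand-specific RNA sequencing gave between 11622444 and 29931125 counts per library. Levels are given as CPM, the counts of a gene per 1e+06 counts, scaled between libraries by the trimmed mean of M-values (TMM), and they are compared between libraries and not between genes, since no transcript lengths were used. A gene with 3 counts corresponded to 0.0833 to 0.262 CPM, which was taken as the lowest level that a library could show. Of the 43 genes, 41 passed the filter on low counts. COL10A1, a collagen of growth plate cartilage, had at most 1 count in a library, and COL20A1 had at most 2. Libraries also differed in technical measures. Genes in gene-dense regions were lower than genes in gene-sparse regions in RV at 2 days (log2 difference of -1.34, each gene taken relative to its mean over libraries), in CL caudal before treatment (-1.22) and in CL caudal at 1 month (-0.92), and were higher in BM at 1 week (0.81) and at 3 weeks (1.21). Ribosomal protein genes took from 3.41% of counts in RV at 2 days to 17.4% in RV before treatment. Their share moved with the time groups, from 3.41% to 7.47% early and from 7.79% to 14.2% late, and was lower early than late in 4 of 4 tumors. Of the 43 collagen genes, 5 lie in gene-dense regions and 15 in gene-sparse regions. The part of these technical measures in the changes over time was not tested. The library names of BM follow another scheme than those of RV and CL, so any preparation batch and the dog cannot be told apart.

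Collagen genes took between 0.218% and 8.40% of all counts in a library. In BM the share was 0.558% before treatment, 3.09% at 1 week and 8.40% at 3 weeks. In CL cranial the order was reversed, with 1.98% before treatment, 1.12% at 1 week and 0.522% at 1 month. In CL caudal the share was 0.218% before treatment, 0.549% at 1 week and 0.225% at 1 month. In RV it was 1.11% before treatment, 0.360% at 2 days, 0.720% at the injection site at 2 weeks and 1.66% at the adjacent site. The 4 tumors therefore moved in different ways, and the 2 late sites of 1 mass differed by more than the before and late biopsies of CL caudal. Wilson 95% intervals on these shares were narrow, for example 0.716% to 0.724% at the injection site and 1.65% to 1.66% at the adjacent site of RV, and cover counting error only. In bulk tissue, fewer cells of a type and less RNA per cell cannot be told apart.

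**Figure D1:**
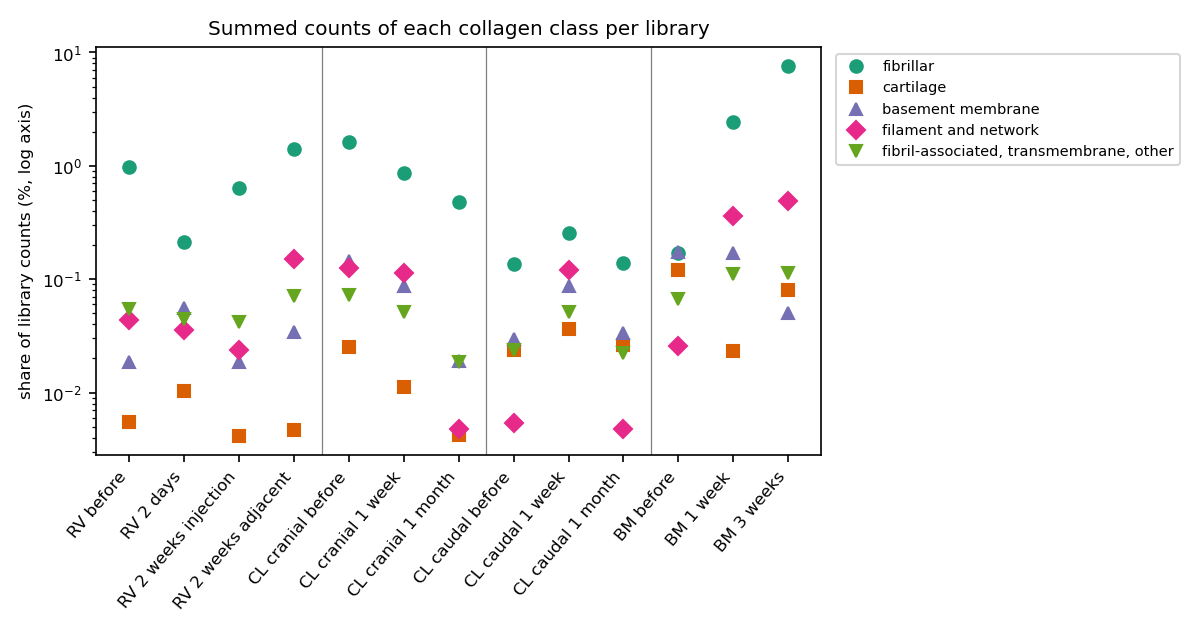
Share of library counts (percent, log axis) taken by the summed counts of each of the 5 collagen classes in each of the 13 biopsies, with vertical lines between tumors and 1 point per class and library. The fibrillar class is the highest class except in BM before treatment, where the basement membrane class was level with it, and it reached 7.67% in BM at 3 weeks.

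The fibrillar genes led the family. COL1A1, COL1A2 and COL3A1 together made up 86.8% of collagen counts in BM at 3 weeks and 17.2% in BM before treatment. COL1A1 (chromosome 9, 26134702 to 26150789) encodes the more abundant chain of collagen I. Its level in RV was 2429 CPM before treatment, 343 at 2 days, 1301 at the injection site and 2736 at the adjacent site at 2 weeks. In CL cranial it was 3073 CPM before treatment, 1959 at 1 week and 2201 at 1 month. CL caudal had far less, with 103, 83.6 and 210.4 CPM at the same times. In BM the level was 186 CPM before treatment, 7310.4 at 1 week and 40138 at 3 weeks, which was 39.3-fold and 216-fold the level before treatment. COL1A1 was thus 7.08-fold lower in the early biopsy of RV and higher in the early biopsy of BM.

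COL1A2, the partner chain of collagen I (chromosome 14, 19843097 to 19878889), had 8603 CPM in RV before treatment, 590.2 at 2 days, 5451 at the injection site and 12557 at the adjacent site. It had 4074, 2082 and 1176 CPM in CL cranial before treatment, at 1 week and at 1 month. In CL caudal the values were 251, 333 and 282 CPM, and in BM 221, 6554 and 34624 CPM. The early biopsy of RV was 14.6-fold below its own level before treatment, and BM at 3 weeks was 156-fold above. COL3A1, the single chain of collagen III (chromosome 36, 30884313 to 30921873), had 1331, 474, 818 and 1843 CPM in the 4 RV biopsies in the same order. Its values were 4544, 1932 and 1085 CPM in CL cranial, 355, 547 and 351 in CL caudal, and 329.7, 8258 and 16934 in BM. COL3A1 followed COL1A2 in RV, CL cranial and BM, with a smaller span in RV and BM and a larger one in CL cranial.

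The 2 main chains of collagen V differed from each other. Values are given in the order of sampling, with the injection site before the adjacent site in RV. COL5A1 (chromosome 9, 50765252 to 50915697) had 118, 44.0, 54.4 and 82.0 CPM in RV, 165, 158 and 25.9 in CL cranial, 12.7, 42.3 and 13.8 in CL caudal, and 173, 539 and 2253 in BM. COL5A2, which lies 12502 bases from COL3A1, had 243, 150.3, 299 and 391 CPM in RV, 632, 394 and 275 in CL cranial, 788, 1046 and 566 in CL caudal, and 292, 996 and 2336 in BM. In CL caudal COL5A2 was therefore high where collagen I, collagen III and COL5A1 were low. The count ratio of COL5A2 to COL5A1 was 24.7 to 61.6 in the 3 CL caudal biopsies and 1.04 to 10.6 in the other 10. COL27A1, a fibrillar collagen of cartilage, had 4.26, 11.7, 4.54 and 2.84 CPM in RV, 149, 29.0 and 35.04 in CL cranial, 60.0, 45.3 and 88.8 in CL caudal, and 74.1, 45.5 and 56.0 in BM. It was lower in every RV biopsy than in every mammary biopsy. Of the remaining fibrillar genes, COL5A3 ranged from 8.70 CPM in RV at 2 days to 57.3 in BM at 1 week, and COL24A1 was highest in RV at 2 days (85.3 CPM against 3.13 before treatment) and in BM at 3 weeks (57.7 CPM).

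**Figure D2:**
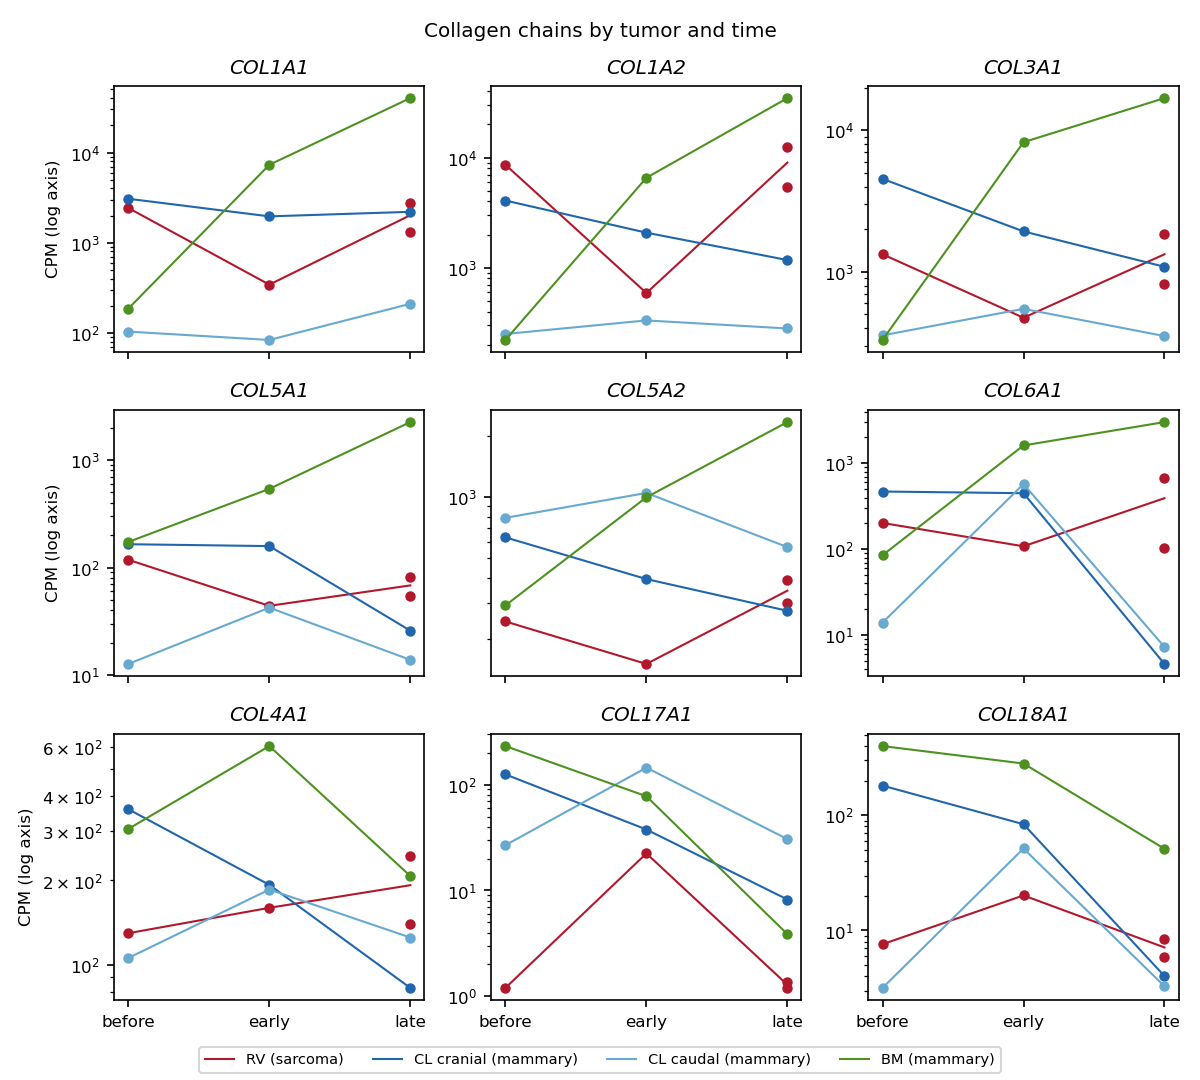
Level (CPM, log axis) of 9 collagen chains before treatment, early and late in the 4 tumors, with 1 point per biopsy and lines through the mean of the 2 late RV biopsies. COL1A1 in BM goes from 186 to 40138 CPM while CL caudal stays between 83.6 and 210.4, and COL6A1 in CL cranial ends at 4.63 CPM.

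Among the cartilage genes, COL11A1, a chain of collagen XI that nucleates thin fibrils (chromosome 6, 47863598 to 48060623), was the most abundant. It had 66.5, 56.5, 46.6 and 55.1 CPM in RV and 57.6, 41.1 and 35.7 in CL cranial. It had 252, 181 and 269 CPM in CL caudal and 537, 113 and 984 in BM. All 6 biopsies of CL caudal and BM were above all 7 of RV and CL cranial. COL11A1 was also the only gene of the family that was lower early than before in all 4 tumors, with the widest drop in BM, where it was 4.77-fold lower at 1 week.

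The other cartilage genes were scarce in RV and varied by tumor. COL2A1, the main chain of cartilage collagen (chromosome 27, 39807429 to 39838181), had 0.400, 1.96, 0.203 and 0.121 CPM in RV, 39.8, 1.57 and 1.84 in CL cranial, 10.5, 24.9 and 8.87 in CL caudal, and 4.17, 6.67 and 0.462 in BM. COL9A1 (chromosome 12, 32987732 to 33078117) and COL9A2 encode chains of collagen IX, which coats cartilage fibrils. COL9A1 had 0.267, 13.2, 0.0678 and 0 CPM in RV, 6.97, 6.03 and 1.57 in CL cranial, 2.45, 0.693 and 1.91 in CL caudal, and 185, 56.1 and 3.53 in BM. COL9A2 had 3.20, 3.37, 3.73 and 3.27 CPM in RV, 90.4, 29.0 and 2.18 in CL cranial, 0.359, 9.41 and 0.0682 in CL caudal, and 137, 47.7 and 10.9 in BM. Both COL9 genes were highest in BM before treatment, where collagen I was low, and both were lower there at 1 week and again at 3 weeks. COL11A2 was highest in CL caudal at 1 week (91.1 CPM) and in BM before treatment (63.9 CPM), and COL9A3 reached at most 3.14 CPM and was at 0 in 4 libraries. The summed level of 7 cartilage cell marker genes, which include ACAN and SOX9, was 350.4 to 970.3 CPM in CL caudal and 31.5 to 44.9 in RV and CL cranial together. In BM it was 125 CPM before treatment, 32.4 at 1 week and 364 at 3 weeks. Among the BM biopsies, COL2A1, COL9A1 and COL9A2 were lowest at 3 weeks and COL11A1 was highest. The part of these cells in the cartilage collagen levels was not tested.

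COL4A1 and COL4A2 encode the 2 chains found in nearly all basement membranes and lie head to head on chromosome 22 (58660825 to 58801735 and 58801350 to 58971538), where their spans overlap by 386 bases, so reads there are uncertain unless strand was used in counting. COL4A1 had 129.5, 159.7, 139 and 245 CPM in RV, 359.5, 193 and 82.6 in CL cranial, 106, 186 and 125 in CL caudal, and 306, 605 and 207 in BM. COL4A2 had 67.4, 74.5, 54.8 and 118 CPM in RV, 225, 144 and 29.1 in CL cranial, 53.2, 174 and 65.9 in CL caudal, and 269, 450.3 and 147 in BM. Across the 13 libraries COL4A1 spanned 7.32-fold, against 480-fold for COL1A1. Both chains were highest in BM at 1 week, and COL4A1 in that library stood apart from the other early libraries. The summed level of 7 endothelial marker genes was also highest there, at 1693 CPM against 30.1 to 352 in the other 12 libraries, and its part in the COL4A1 level was not tested.

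COL17A1 (chromosome 28, 16543707 to 16595892), the epithelial anchor, and COL18A1 (chromosome 31, 38893993 to 38935752), the precursor of endostatin, varied more. COL17A1 had 1.20, 22.4, 1.36 and 1.21 CPM in RV, 125, 37.7 and 8.21 in CL cranial, 26.8, 145 and 30.6 in CL caudal, and 232, 77.7 and 3.86 in BM. COL18A1 had 7.60, 20.2, 5.83 and 8.41 CPM in RV, 181, 83.6 and 4.02 in CL cranial, 3.17, 51.5 and 3.27 in CL caudal, and 399, 281 and 51.2 in BM. Both were lower at each later time in CL cranial and BM, and both were highest in the early biopsy in RV and CL caudal. In BM at 3 weeks COL17A1 was 59.9-fold below its level before treatment. The summed level of 7 epithelial marker genes, which include EPCAM and CDH1 and of which none was at 0 in any library, was 3129 CPM in BM before treatment, 1815 at 1 week and 167 at 3 weeks, and 4717, 2692 and 3729 in CL cranial. In CL cranial at 1 month COL17A1 was 15.2-fold lower while that sum stood at 3729 CPM. The part of epithelial cells in the COL17A1 level was not tested.

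The chains of collagen IV with restricted tissue use were low in most libraries. COL4A6 (chromosome X, 82301801 to 82589247), which lies 1200 bases from COL4A5, had 0.600, 17.9, 0.814 and 0.242 CPM in RV, 27.9, 10.8 and 7.34 in CL cranial, 30.4, 40.8 and 19.9 in CL caudal, and 24.3, 17.6 and 2.10 in BM. COL4A4, a chain known from kidney basement membrane, had 0.0666, 10.4, 0.475 and 0.302 CPM in RV, 0.968, 1.97 and 0.350 in CL cranial, 2.39, 0.611 and 1.09 in CL caudal, and 2.81, 2.31 and 0.126 in BM. COL4A6, COL4A5, COL4A4 and its neighbor COL4A3 were all more than 10 times higher in RV at 2 days than in the other 3 RV biopsies. COL7A1, the anchoring fibril collagen of skin, ranged from 0.538 CPM in CL caudal before treatment to 57.5 in CL cranial at 1 week. COL15A1, a collagen of vessel and muscle basement membrane, ranged from 11.7 CPM in CL caudal before treatment to 218 in BM at 3 weeks.

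**Figure D3:**
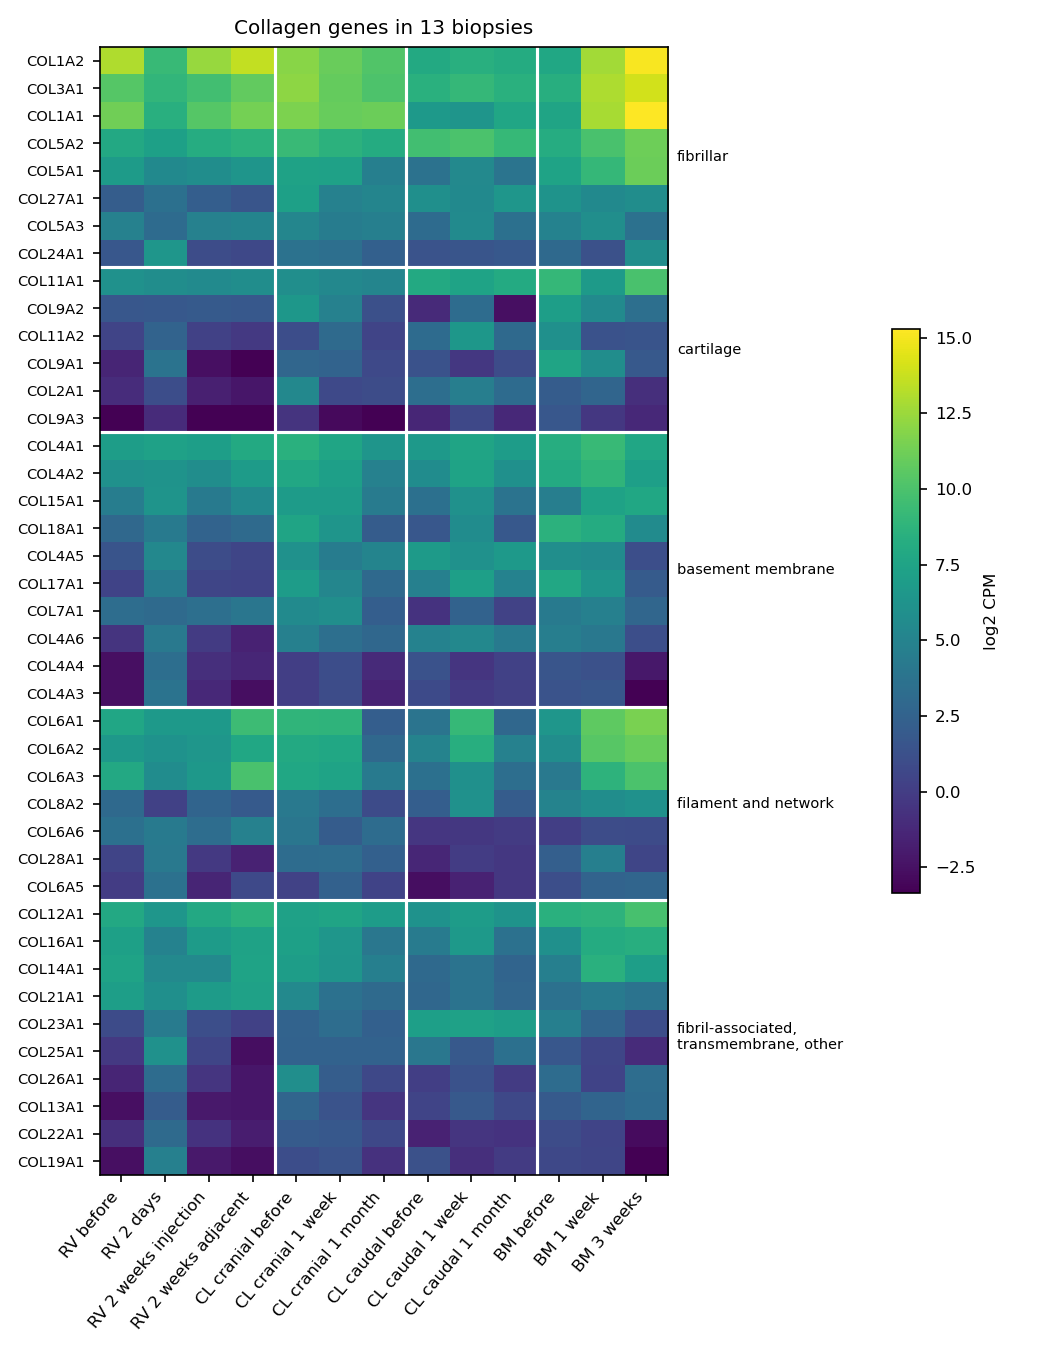
Level of the 41 tested collagen genes (log2 CPM, color) in the 13 biopsies, with genes ordered by mean level within each class and white lines between classes and between tumors. In BM at 3 weeks 13 of the genes had their highest level, among them COL1A1, COL1A2, COL3A1, COL5A1, COL5A2, COL6A1, COL6A2 and COL6A3. The other fibrillar and collagen VI genes were highest in other libraries. In RV at 2 days 7 scarce genes are highest.

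Collagen VI varied widely within tumors. COL6A1 and COL6A2 lie 97455 bases apart on chromosome 31 (39282131 to 39299654 and 39397110 to 39429683), and their chains assemble with that of COL6A3 into beaded filaments. COL6A1 had 202, 108, 104 and 682 CPM in RV, 469.6, 449 and 4.63 in CL cranial, 14.0, 573 and 7.30 in CL caudal, and 85.2, 1614 and 3018 in BM. COL6A2 had 97.7, 71.5, 87.0 and 217 CPM in RV, 255, 215 and 7.69 in CL cranial, 32.1, 322 and 29.1 in CL caudal, and 55.1, 1391 and 1990.4 in BM. The 2 genes shared the same extremes. COL6A1 was 40.9-fold higher at 1 week in CL caudal and back to 7.30 CPM at 1 month, and it was 101.4-fold lower in CL cranial at 1 month. COL6A3 had 239, 52.9, 94.3 and 984 CPM in RV, 212, 180.1 and 19.1 in CL cranial, 11.2, 65.1 and 10.2 in CL caudal, and 18.4, 412 and 1047 in BM. Its pattern was that of COL6A1, with smaller changes in both CL tumors. The adjacent RV site had more of all 3 chains than the injection site, by 682 against 104 CPM for COL6A1 and 984 against 94.3 CPM for COL6A3.

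The 2 other collagen VI genes behaved apart from these 3. COL6A6 (chromosome 23, 28271892 to 28414438) had 11.7, 20.5, 10.04 and 29.1 CPM in RV, 15.7, 4.14 and 9.35 in CL cranial, 0.658, 0.693 and 0.819 in CL caudal, and 1.0, 1.92 and 1.81 in BM. Every biopsy of RV and CL cranial was above every biopsy of CL caudal and BM. COL6A5, its neighbor 33435 bases away, had 0.866, 12.01, 0.271 and 1.57 CPM in RV, 1.16, 5.43 and 1.22 in CL cranial, 0.0598, 0.244 and 0.682 in CL caudal, and 2.08, 5.96 and 6.47 in BM. COL28A1, a collagen with collagen VI-like domains found around nerves, had 1.27, 18.5, 0.746 and 0.242 CPM in RV, 9.25, 9.65 and 5.07 in CL cranial, 0.299, 0.896 and 0.682 in CL caudal, and 4.92, 26.4 and 1.34 in BM. COL6A5 and COL28A1 were the only collagen genes higher early than before in all 4 tumors, and CL caudal held under 1 CPM of each throughout. COL8A2, a short-chain collagen of vessels and cornea, was between 1.07 CPM in RV at 2 days and 67.3 in CL caudal at 1 week.

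Of the fibril-associated genes, COL12A1, which binds the surface of collagen I fibrils, had 239, 84.9, 244 and 397 CPM in RV, 157, 188 and 125 in CL cranial, 72.2, 125 and 74.4 in CL caudal, and 367, 415 and 945 in BM. COL16A1 had 149.7, 30.0, 118 and 167 CPM in RV, 153, 85.2 and 16.1 in CL cranial, 20.7, 109 and 12.3 in CL caudal, and 64.5, 278 and 316 in BM. Both were lowest among the RV biopsies at 2 days and highest of all libraries in BM at 3 weeks. COL21A1, a small relative of these collagens (chromosome 12, 23589944 to 23830906), had 140.1, 60.1, 119.9 and 162 CPM in RV, 43.6, 12.02 and 8.48 in CL cranial, 7.12, 13.2 and 7.03 in CL caudal, and 12.1, 20.1 and 13.2 in BM. It was higher in each RV biopsy than in any mammary biopsy. COL14A1, a further fibril surface collagen, was highest in BM at 1 week (366 CPM against 26.1 before treatment), and COL22A1 and COL26A1 stayed under 10 CPM in all but 1 library of COL26A1, CL cranial before treatment (56.7 CPM).

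Among the transmembrane collagens and COL19A1, 1 tumor or library often stood above the others. COL23A1 (chromosome 11, 3264415 to 3586474) had 147, 161 and 129.5 CPM in CL caudal, 6.05, 9.85 and 4.98 in CL cranial, 26.5, 6.64 and 2.02 in BM, and 1.80, 20.9, 2.10 and 1.09 in RV. Its levels in CL caudal changed little over time and lay above all others. COL25A1, a collagen of neurons and muscle innervation, had 66.6 CPM in RV at 2 days and 0.733, 1.36 and 0.0605 in the other RV biopsies, 5.57, 5.59 and 5.51 in CL cranial, 16.3, 3.503 and 11.5 in CL caudal, and 3.11, 1.35 and 0.378 in BM. COL19A1, a fibril-associated collagen next to COL9A1, had 27.2 CPM in RV at 2 days and 0.0666, 0.136 and 0.0605 in the other RV biopsies, 1.94, 2.61 and 0.524 in CL cranial, 2.33, 0.448 and 0.819 in CL caudal, and 1.56, 1.38 and 0 in BM. COL13A1 was highest in BM at 3 weeks, with 8.69 CPM.

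Early against before treatment, no single direction held across the tumors. In RV at 2 days 21 of the 41 tested genes were at least 2-fold higher and 11 at least 2-fold lower, where 39.3% and 25.8% of all 20118 genes tested passed the same bounds. The higher genes included 7 of 10 basement membrane and 4 of 6 cartilage genes, and the lower ones 5 of 8 fibrillar genes. In CL caudal at 1 week 21 genes were at least 2-fold higher and 5 lower (29.2% and 18.4% of all genes), with 6 of 7 filament and network genes among the higher. In BM at 1 week 13 were higher and 10 lower (19.1% and 18.4%), with 5 of 8 fibrillar genes higher and 5 of 6 cartilage genes lower. In CL cranial at 1 week 2 were higher, COL6A5 and COL11A2, and 13 lower (16.1% and 7.22%). Each of these counts compares single libraries and has no replicate check. The median log2 change of the 41 genes was 1.40 in RV, 1.07 in CL caudal, 0.67 in BM and -0.65 in CL cranial, beside 0.26, 0.10, -0.02 and 0.01 over all genes.

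In the fit across the 4 tumors (edgeR quasi-likelihood test, tumor as a block, Benjamini-Hochberg adjustment over all genes tested), 0 of 41 collagen genes passed an adjusted p of 0.05 early against before, against 0.00497% of all genes (1 gene). At an unadjusted p of 0.05, 2 collagen genes passed, both higher (7.70% of all genes were higher at that bound and 3.16% lower). COL6A5 had a log2 change of 2.60 (SE 0.96, edgeR adjusted p = 0.375) and was higher in 4 of 4 tumors, in CL caudal from under 3 counts. COL28A1 had 2.35 (SE 0.90, edgeR adjusted p = 0.390) and was higher in 4 of 4 tumors, while COL11A1 had -0.67 (SE 0.49, edgeR adjusted p = 0.596) and was lower in 4 of 4. Being higher in all 4 tumors held for 10.8% of all genes, and lower in all 4 for 7.85%, so 2 and 1 of 41 were below those shares. DESeq2 also called 0 collagen genes, beside 4.75% of all genes, with 3 collagen genes at an unadjusted p of 0.05. The estimates for 32 of 41 collagen genes lay above 0, with a median log2 change of 0.52 against 0.25 over all genes. This shift depended on the libraries in the fit. Without CL caudal the median was 0.008 against 0.12, with 21 of 41 above 0. Without CL cranial it was 1.22 against 0.30, with 37 of 41 above 0. Without the 3 libraries lowest in gene-dense regions, a choice made after seeing the data, it was -0.22 against -0.03, with 17 of 41 above 0. The collagen I chains had log2 changes of -0.74 (SE 1.05) for COL1A1 and -0.64 (SE 1.17) for COL1A2, with edgeR adjusted p of 0.776 and 0.827. The early changes of both chains had opposite signs in RV and BM, and the plain mean of the 4 changes was above 0, at 0.38 and 0.12. The fitted value and the plain mean differed in sign for 8 of 41 genes in this comparison, and for 1 gene each late against before (COL6A1) and late against early (COL6A3).

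In RV at 2 days the higher and the lower collagen genes had different median genomic spans, with overlapping ranges. The 21 higher genes spanned a median of 135 kb of genome (15.7 to 444.6 kb). The 11 lower ones spanned a median of 49.1 kb (9.36 to 241 kb). The difference was not tested and was not compared with that of all genes. In CL caudal at 1 week the order was the other way, with a median of 49.1 kb for the 21 higher genes and 130.4 kb for the 5 lower. It was also the other way in BM at 1 week, with 80.2 kb for the 13 higher genes and 143 kb for the 10 lower. CL cranial at 1 week had 79.4 kb for the 2 higher genes and 135 kb for the 13 lower. RV at 2 days and CL caudal before treatment were the 2 libraries lowest in gene-dense regions. In RV at 2 days the 5 epidermal marker genes of the table summed to 1450.2 CPM, against 22.8 to 89.6 in the before group, 27.5 to 29.9 in the other early libraries and 22.9 to 48.9 in the late group, with KRT1, IVL or DSG1 at 0 in BM at 1 and 3 weeks and in CL caudal at 1 month. The 7 leukocyte marker genes summed to 1965 CPM there against 242 in RV before treatment, and the 7 fibroblast marker genes to 379 against 4363. The part of these in the collagen values of that library was not tested.

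**Figure D4:**
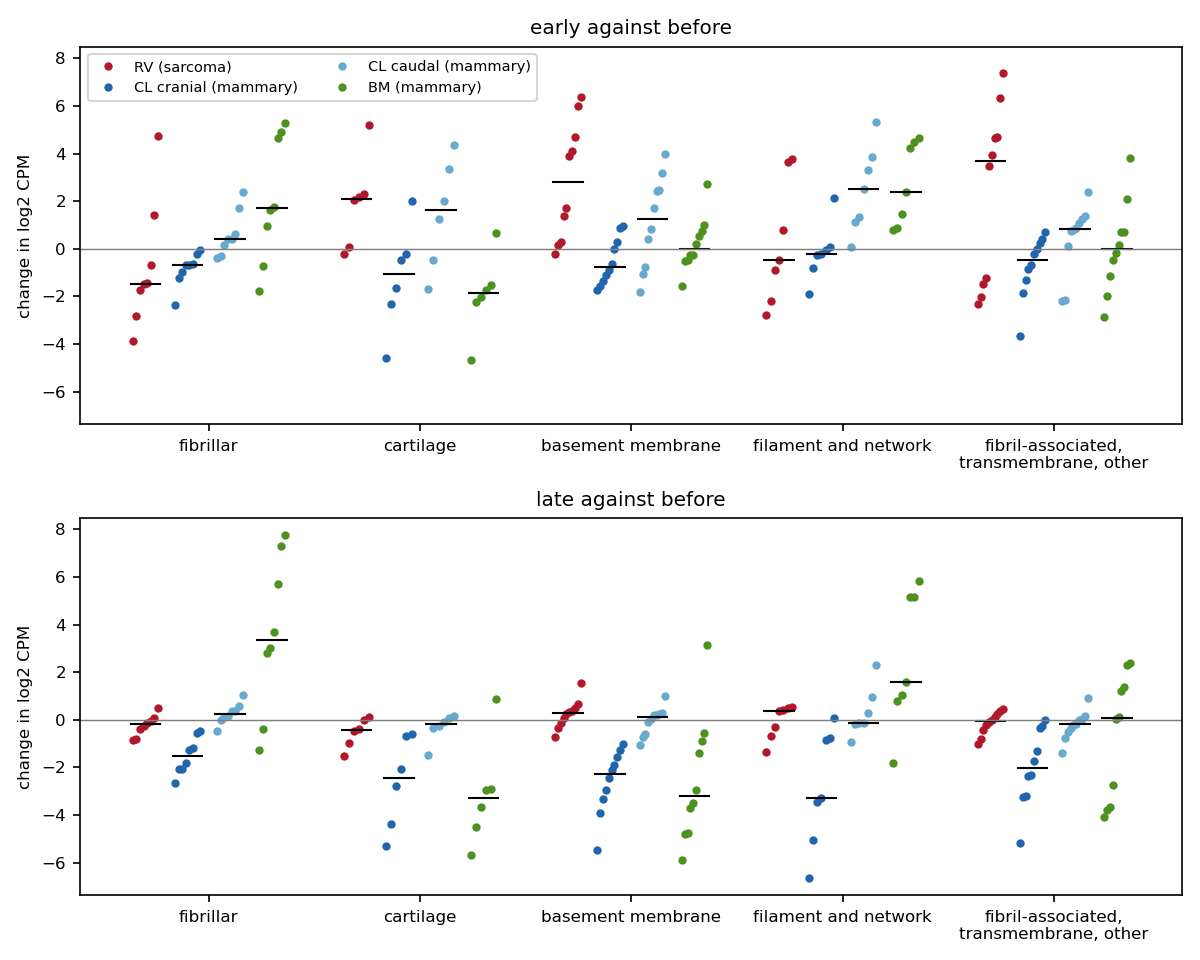
Change in log2 CPM of each tested collagen gene within each tumor, early against before (top) and late against before (bottom), by class, with 1 point per gene and black bars at the median. Late changes in CL caudal, and in RV as the mean of its 2 late sites, lie near 0 for most genes, those of CL cranial lie below 0 with a median of -2.08, and in BM the fibrillar median is 3.35 and the basement membrane median -3.22.

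Late against before treatment, few collagen genes moved by 2-fold in CL caudal, and in RV on the mean of its 2 late sites, while most did in CL cranial and BM. In RV on that mean, 1 of 41 genes was at least 2-fold higher and 3 lower (6.15% and 7.57% of all genes). The sites taken alone had more, with 2 higher and 5 lower at the injection site (8.21% and 9.07% of all genes) and 5 higher and 8 lower at the adjacent site (8.54% and 10.6%). COL6A3 was among the lower genes at the injection site and among the higher ones at the adjacent site, where COL6A1 and COL6A2 were higher too. In CL caudal 2 were higher, COL1A1 and COL6A5, and 3 lower, COL4A4, COL9A2 and COL19A1 (7.97% and 7.89% of all genes). COL6A5 before treatment and COL9A2 at 1 month were under 3 counts there. In CL cranial at 1 month 0 were higher and 30 lower (20.2% and 27.8%), including 9 of 10 basement membrane and 6 of 8 fibrillar genes. In BM at 3 weeks 16 were higher and 18 lower (21.7% and 29.1%). The higher genes in BM held 6 of 8 fibrillar and 5 of 7 filament and network genes, and the lower ones held 7 of 10 basement membrane and 5 of 6 cartilage genes. The median log2 changes of the 41 genes were -2.08 in CL cranial, -0.40 in BM, -0.06 in RV and -0.02 in CL caudal, beside -0.12, -0.07, 0.02 and -0.01 over all genes.

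Across the tumors, 0 of 41 collagen genes passed late against before in edgeR at an adjusted p of 0.05, as did 0% of all genes. At an unadjusted p of 0.05, 4 passed, all lower (2.72% of all genes were lower at that bound and 1.28% higher): COL17A1, COL2A1, COL18A1 and COL4A6. COL17A1 had a log2 change of -3.08 (SE 1.08, edgeR adjusted p = 0.973), and COL18A1 -2.29 (SE 0.95) at the same adjusted p. COL2A1 had -2.57 (SE 1.003) and COL4A6 -1.95 (SE 0.89), and both were lower in 4 of 4 tumors. COL9A1, at -2.80 (SE 1.40), was also lower in 4 of 4. In all, 7 collagen genes were lower late than before in all 4 tumors, and 0 were higher in all 4 (8.04% and 7.13% of all genes). COL4A5, COL11A2, COL23A1 and COL25A1 were the others beside these 3. The direction in RV is that of the mean of its late sites. At the RV injection site alone, COL4A6, COL23A1 and COL25A1 were higher than before treatment. COL2A1 and COL9A1 had at most 3 counts in either late RV biopsy. DESeq2 called 0 collagen genes, beside 0.0348% of all genes, with 10 collagen genes at an unadjusted p of 0.05. The estimates of 28 of 41 genes were below 0, with a median of -0.64 against -0.05 over all genes. This shift depended on CL cranial. Without that tumor the median was 0.03 against -0.02 over all genes, with 22 of 41 above 0. Without BM, CL caudal or RV it was -0.75, -0.89 and -0.83. COL1A1 had 0.90 (SE 1.01) and COL1A2 0.69 (SE 1.15), with an edgeR adjusted p of 0.974 and 0.977, and neither differed beyond the spread between tumors.

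In BM at 3 weeks the marker lists moved beside the collagens. The 7 fibroblast marker genes, none at 0, summed to 208 CPM before treatment, 2587 at 1 week and 2886 at 3 weeks, where all libraries spanned 208 to 4363 before treatment, 379 to 2587 early and 411 to 4990.3 late. The 7 bone cell marker genes summed to 92.9, 196 and 404 CPM in BM in the same order, with SP7, a defining gene of bone-forming cells, at 0.222, 0.213 and 24.2 CPM. From before treatment to 3 weeks the fibroblast sum was 13.9-fold higher and COL1A1 216-fold higher, and from 1 to 3 weeks the sum was 1.12-fold and COL1A1 5.49-fold higher. The part of cell makeup in these values was not tested.

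Late against early, 0 of 41 collagen genes passed in edgeR at an adjusted p of 0.05 (0.00994% of all genes, 2 genes). At an unadjusted p of 0.05, 13 of 41 passed, all lower, where 17.7% of all genes were lower and 26.6% passed in either direction. They included 6 of 10 basement membrane genes, 3 of 6 cartilage genes and 0 of 8 fibrillar genes. COL28A1 had a log2 change of -3.16 (SE 0.90, edgeR adjusted p = 0.0737) and COL17A1 of -3.15 (SE 0.90) at the same adjusted p. COL18A1 had -2.77 (SE 0.87, edgeR adjusted p = 0.0883), and COL4A6 -2.87 (SE 0.92, edgeR adjusted p = 0.0905). These 4 were lower in 4 of 4 tumors, as were COL9A3, COL22A1 and COL23A1, 7 of 41 in all beside 17.4% of all genes. COL1A1 was the only one higher in 4 of 4 (12.9% of all genes), with a log2 change of 1.64 (SE 1.01, edgeR adjusted p = 0.314). DESeq2 called 14 collagen genes, all lower, beside 23.9% of all genes, so the calls depended on the tool. Leaving out RV before treatment or BM at 1 week gave 1 call in edgeR (809 and 2000 genes over all). Within the tumors, 12 genes were at least 2-fold higher and 21 lower in RV (27.6% and 39% of all genes), 1 and 24 in CL cranial (16.7% and 30.6%), 4 and 20 in CL caudal (18.7% and 29.4%), and 10 and 19 in BM (14.5% and 27%). The median over the 41 genes was -1.43 against -0.35 over all genes.

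The summed CPM of each class gave 1 value per library, in which the most abundant genes of the class weigh most. For the cartilage class the sum and most of its genes parted in BM. Late against before, 5 of 6 cartilage genes were at least 2-fold lower there, with a median log2 change of -3.29. The cartilage sum changed by 0.11. The log2 change of the fibrillar sum early against before was -2.90 in RV, 4.18 in BM, -0.95 in CL cranial and 0.44 in CL caudal, with a mean of 0.19 ± 2.99 (SD, n = 4 tumors). For the late group the values were -0.11, 6.20, -1.39 and -0.05, with a mean of 1.16 ± 3.41. The filament and network sum changed early by -0.98, 4.14, -0.17 and 4.03 in the same order, and late by 0.44, 4.94, -4.33 and -0.25. The basement membrane sum was lower late than early in 4 of 4 tumors, by -0.47, -1.39, -1.80 and -1.01, with a mean of -1.17 ± 0.57. An exact two-sided sign-flip permutation test over 4 tumors gave p = 0.125 for it, the smallest p that 4 pairs allow, and 0.833 after Benjamini-Hochberg adjustment over the 24 class and ratio tests. No class sum could pass 0.05 in this test.

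In an edgeR F-test of the tumor term, 6 of 41 collagen genes passed an adjusted p of 0.05, or 14.6%, beside 7.91% of all genes (1591 genes), and 25 of 41 passed at an unadjusted p of 0.05 beside 27.8%. The biopsies of 1 mass at different times served as its repeats, so this compares 4 masses and not tumor types. The distance between the highest and lowest tumor was 4.58 on the log2 scale for COL6A6 (edgeR adjusted p = 0.00922), which was higher in RV and CL cranial. It was 3.42 for COL11A1 (edgeR adjusted p = 0.0115), higher in CL caudal and BM, and 5.00 for COL23A1 (edgeR adjusted p = 0.0117), highest in CL caudal at 146 ± 15.9 CPM (SD, n = 3 biopsies). For COL21A1 it was 3.77 (edgeR adjusted p = 0.0120), with 120 ± 43.7 CPM in RV (n = 4 biopsies) against 9.10 ± 3.51 in CL caudal, 15.2 ± 4.34 in BM and 21.4 ± 19.3 in CL cranial (n = 3 each). For COL27A1 it was 3.45 (edgeR adjusted p = 0.0285), lowest in RV at 5.83 ± 3.97 CPM. For COL5A1 it was 5.48 (edgeR adjusted p = 0.0303), lowest in CL caudal at 23.0 ± 16.8 CPM and highest in BM at 988 ± 1111 CPM, where the SD exceeded the mean. Just outside the bound were COL18A1 (edgeR adjusted p = 0.0532), COL1A1 (0.0538, with a distance of 6.57), COL12A1 (0.0540) and COL2A1 (0.0575).

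**Figure D5:**
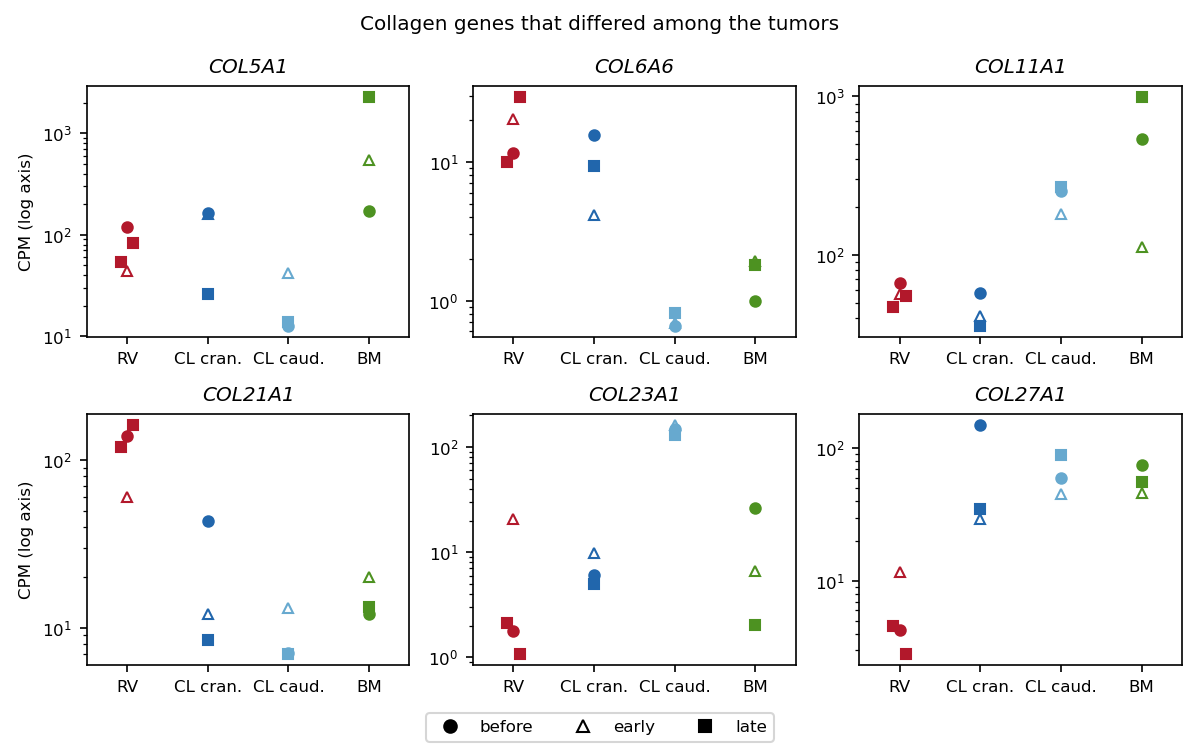
Level (CPM, log axis) of the 6 collagen genes that passed the test among tumors, by tumor, with 1 point per biopsy and the marker giving the time group. COL23A1 lies between 129.5 and 161 CPM in CL caudal and at most at 26.5 elsewhere, while COL5A1 in BM spans 173 to 2253.

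These calls depended on which masses and libraries were in the fit. Without the RV tumor 1 of the 6 genes stayed called, COL23A1, and it was the only collagen gene called. Without CL caudal 3 were called, all of the 6 (COL11A1, COL21A1 and COL27A1), and without CL caudal at 1 month 3 of the 6. Leaving out CL caudal before treatment, RV before treatment, either late RV site or BM at 3 weeks left 4 called, each time 4 of the 6. Leaving out RV at 2 days raised the count to 20, with all 6 among them, beside 27.1% of all genes. Without CL caudal at 1 week 10 were called and without BM before treatment 11, with all 6 among them. Without the 3 libraries lowest in gene-dense regions, a choice made after seeing the data, 9 were called, 4 of them among the 6, beside 10% of all genes. DESeq2 called 25, with all 6 among them, beside 28% of all genes.

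Whether the sarcoma changed unlike the mammary tumors was tested as an interaction of tumor type with time. The sarcoma arm is 1 tumor with 1 biopsy before treatment and 1 early, the latter at 2 days and not at 1 week, so the spread behind the early comparison, in edgeR and DESeq2 alike, comes from the mammary tumors and the 2 late RV sites. Early against before, 0 of 41 collagen genes passed an adjusted p of 0.05 in edgeR, as did 0% of all genes. At an unadjusted p of 0.05, 14 passed, 13 of them with a higher change in RV, beside 24.4% of all genes in either direction and 16.7% higher. COL4A6 had a difference in log2 change of 5.38 (SE 1.44, edgeR adjusted p = 0.0988), COL25A1 of 7.59 (SE 2.10, edgeR adjusted p = 0.101) and COL19A1 of 8.95 (SE 2.52, edgeR adjusted p = 0.102). COL4A4 had 7.36 (SE 2.18, edgeR adjusted p = 0.105). All rest on RV at 2 days, the library lowest in gene-dense regions, and on RV before treatment, where COL4A4 and COL19A1 were under 3 counts. With DESeq2 size factors in place of TMM the median over all genes in this comparison moved from 0.11 to 0.29. DESeq2 called 12 collagen genes, all with a higher change in RV, beside 17.1% of all genes. In edgeR 9 were called without the BM tumor (of 1921 genes in all) and 8 without BM at 3 weeks (of 1839). Late against before, 0 of 41 passed in edgeR (0% of all genes), 0 also at an unadjusted p of 0.05 (2.71% of all genes), and 0 in DESeq2, which had 4 at an unadjusted p of 0.05. The largest differences by p were those of COL9A2 at 4.25 (SE 1.95), COL4A4 at 4.45 (SE 2.08) and COL17A1 at 3.70 (SE 1.75), each with an edgeR adjusted p of 0.998.

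Ratios of chains within a library do not depend on scaling between libraries. Other library differences, such as that between gene-dense and gene-sparse regions, may still enter them. COL1A2 exceeded COL1A1 by 3.54, 1.72, 4.19 and 4.59 times in the 4 RV biopsies, and by 2.42, 3.98 and 1.34 times in CL caudal. In CL cranial the count ratio was 1.33 before treatment, 1.06 at 1 week and 0.534 at 1 month, and in BM it was 1.19, 0.897 and 0.863. RV therefore held relatively more of the COL1A2 chain than CL cranial and BM in every biopsy. The ratio of COL3A1 to COL1A1 was 0.548, 1.38, 0.629 and 0.674 in RV, 1.48, 0.986 and 0.493 in CL cranial, 3.43, 6.55 and 1.67 in CL caudal, and 1.77, 1.13 and 0.422 in BM. It was lower late than early in 4 of 4 tumors, by a mean log2 change of -1.37 ± 0.44 (SD, n = 4). The exact sign-flip permutation p was 0.125, the smallest possible, and 0.833 after adjustment. In the 3 mammary tumors it was also lower late than before, by -2.07 to -1.04 on the log2 scale, and in RV it was higher by 0.25. COL1A1 lies in a gene-dense region, with 41 genes within 500 kb, and COL3A1 in a gene-sparse one, with 12. In BM the dense to sparse log2 difference rose from 0.34 to 0.81 and 1.21 while this ratio fell. RV at 2 days (-1.34) had the highest ratio in RV. In CL cranial the difference (0.21, 0.11 and -0.31) and the ratio fell together. In CL caudal (-1.22, 0.295 and -0.92) both were highest at 1 week. The part of gene density in this ratio was not tested. COL4A1 stayed 1.07 to 2.83 times as abundant in counts as COL4A2 in all 13 libraries, the narrowest relative range of the 13 pairs examined. The ratio of COL4A2 to COL4A1 was lower late than early in 4 of 4 tumors, by a mean of -0.52 ± 0.51 (exact permutation p = 0.125, adjusted 0.833).

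Neighbors on a chromosome did not always share their levels. The ratios given here have 2 added to each count. COL4A4 and COL4A3, 17705 bases apart, had count ratios of 0.774 to 2.50, and COL4A6 to COL4A5 of 0.192 to 0.981. The 2.50 was in BM at 3 weeks, where COL4A3 was at 0 and COL4A4 at 0.126 CPM, so it is limited by depth. COL3A1 to COL5A2 ranged from 0.451 in CL caudal before treatment to 8.29 in BM at 1 week, and COL6A1 to COL6A2 from 0.254 in CL caudal at 1 month to 3.14 at the adjacent RV site. COL19A1 and COL9A1, 1222 bases apart, had a ratio of 2.04 in RV at 2 days, where both were above the other RV biopsies, and of 0.00870 in BM before treatment, where COL9A1 was high and COL19A1 was not.

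Genes that make, process, bind and degrade collagen were counted by lists. Of 20 tested genes for chain modification and secretion, 13 for propeptide removal and crosslinking, 10 fibril partners such as decorin, 9 for degradation and 9 collagen receptors, 0 passed an adjusted p of 0.05 in edgeR in any of the comparisons early against before, late against before and late against early. At an unadjusted p of 0.05, early against before, 1 synthesis gene was higher and 1 lower and 1 degradation gene was higher (7.70% of all genes higher and 3.16% lower). Late against before, 1 receptor gene was lower (2.72% of all genes) at that bound. Late against early, 1 synthesis gene and 1 fibril partner were higher (8.87% of all genes) and 1 receptor gene was lower (17.7%). In the F-test among the tumors, 1 of 20, 2 of 13, 1 of 10, 1 of 9 and 3 of 9 passed an edgeR adjusted p of 0.05, beside 7.91% of all genes. The synthesis gene was FKBP14, a prolyl isomerase of the endoplasmic reticulum, and the processing genes were ADAMTS3, a procollagen propeptidase, and LOXL2, a crosslinking oxidase. ADAMTS3 had 338, 108 and 246 CPM in CL caudal and at most 52.8 elsewhere. The fibril partner was FMOD (fibromodulin), with 359, 592 and 118 CPM in CL caudal, and the degradation gene FAP, a fibroblast protease, with 828, 51.6, 439 and 1231 CPM in RV. The receptors were the integrin chains ITGA1, ITGA10 and ITGA11. ITGA11, the fibroblast receptor of collagen I, had 5.42, 39.1 and 309.8 CPM in BM and 0.299, 0.611 and 0.887 in CL caudal, high and low in the same biopsies of BM as COL1A1 and low in CL caudal, as COL1A1 was. The summed level of the fibril partners was 25842, 1969, 16933 and 31054 CPM in RV and 2591, 13527 and 32468 in BM, and it was highest and lowest at the same times as the fibrillar collagens in both tumors.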

How the data were processed

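Tumor samples of 3 dogs were sequenced as 13 strand-specific libraries. The deposited values are raw read counts for each gene symbol, made by the authors after alignment to CanFam4.0 in Strand NGS. How reads were assigned to genes, from which annotation release, and what became of multi-mapped reads is not given in the sources used here, so close paralogs and overlapping genes are uncertain. The samples of a group are biopsies of separate masses, except for the late RV sites, which share a mass and entered the fits as separate libraries. The p-values of the time comparisons therefore measure the spread of changes between masses together with the spread between those sites. In the test among tumors the repeats are biopsies of the same mass at different times.

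The collagen genes, their classes and the pathway and marker lists were written from general knowledge, with earlier results of these data known. In edgeR 4.0.16 (R 4.3.3), filterByExpr with a minimum count of 10 kept 20118 genes, which were scaled by TMM and fitted by robust quasi-likelihood with terms for tumor and time group (common biological coefficient of variation 0.672, 7 residual degrees of freedom). The interaction fit had 5 residual degrees of freedom. P-values were adjusted over all genes tested by the Benjamini-Hochberg method. CPM are TMM-scaled, and log2 CPM carry a prior count of 2. Ratios of chains were tested on counts with 2 added to each. The late RV sites were averaged for changes per tumor.

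Libraries of a tumor are paired because they come from the same mass. The correlation of deviations from the group means was taken over all genes tested. For libraries of the same tumor it averaged 0.229 for before and early, 0.587 for before and late and 0.191 for early and late. The lowest same-tumor values were -0.05, 0.32 and -0.10 in that order. It was negative on average for libraries of different tumors, which follows from centering on group means where same-tumor values are positive on average.

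Genes with full values were the 2 most abundant of each class, those with the smallest p in each comparison among genes that changed in 1 direction in all 4 tumors, those with the smallest p among tumors and in each interaction, and all that passed, 25 in all. The rule called for levels per length, and mean CPM was used since no transcript lengths were used here. Other genes were named after their values were seen. Positions come from RefSeq, and no sequences were used. Alternatives were DESeq2 1.42.0 and its size factors, no filter, no tumor term, the dog as block, only the libraries compared, each library or tumor left out, other scalings of class sums, single late RV sites and a smaller added count. The fits were tested on simulated data. Other computations used Python 3.11.15, numpy 2.4.6, pandas 2.3.3, scipy 1.17.1 and matplotlib 3.10.9.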

Additional observations from a re-analysis of the deposited data

Results flagged for a closer look

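In 99 groups of 4 or 5 biopsies, the highest or lowest value was compared with the others by the size of its gap. Chance alone sets apart about 1 in 20 such groups, or 4.95 of 99, and 4 were found. COL4A1 in BM at 1 week had a log2 CPM of 9.24, where the other early libraries had 7.32 to 7.59. COL4A6 in RV before treatment had -0.52, where the others had 4.61 to 4.93. COL5A1 in CL caudal before treatment had 3.68, where the others had 6.88 to 7.43. COL19A1 in RV before treatment had -2.60, where the others had 0.73 to 1.28.

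In 3 comparisons of the ratios of COL3A1 and COL1A2 to COL1A1, all 3 mammary tumors moved one way and RV the other. Both ratios share COL1A1, and the difference was not tested. The log2 ratio of COL3A1 to COL1A1 late against before changed by 0.25 in RV and by -2.07 to -1.04 in the mammary tumors. The ratio of COL1A2 to COL1A1 changed by 0.31 in RV and by -1.31 to -0.47 late against before, and by 1.35 in RV and by -1.57 to -0.06 late against early.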

How the results depend on the processing

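The counts of 0 collagen genes early against before, late against before and in the late interaction held under every alternative run, including no tumor term in the first 2 comparisons (the block changed no call in any of the 3 time comparisons, with 0 called without it). Late against early, 1 was called without the low-count filter and 14 by DESeq2, and 0 to 1 with a library or tumor left out. Among tumors DESeq2 called 25, and leaving out a library or tumor gave 1 to 20. In the early interaction 5 were called without the filter and 12 by DESeq2, and 0 to 9 with a library or tumor left out, the highest without BM. The cause was not tested. The early log2 change of the cartilage sum turned from -0.72 to 0.34 without its most abundant gene, and late against early from 0.12 to -2.63 without it and to -0.33 on CPM of the total count. The late filament and network sum turned from 0.20 to -0.13 on the RV injection site alone and to -0.0379 on CPM of the total count, and the late fibril-associated sum from -0.08 to 0.0194 on the adjacent site alone. With each tumor left out in turn, values of mixed sign were -1.14 to 1.22 (fibrillar, early), -0.52 to 2.01 (fibrillar, late), -0.56 to 0.50 (cartilage, late against early), -1.38 to 1.71 (filament and network, late), -0.29 to 0.41, -0.59 to 0.42 and -0.50 to 0.18 (fibril-associated, early, late, and late against early), -0.10 to 0.56 (COL3A1 to COL1A1, early), -0.87 to 0.10 (COL1A2 to COL1A1, late against early) and -0.0468 to 0.33 (COL4A2 to COL4A1, early). Members near or under 3 counts in a library, such as COL2A1, COL4A3, COL4A4, COL6A5, COL9A1, COL9A3 and COL19A1, have changes limited by depth.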
